A study of Mus musculus with 5 samples.

Results

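Cell cycle and DNA replication genes were followed in CD11b-positive brain cells of 5xFAD mice with and without a Cd5l transgene. The group held 34 genes taken by symbol from a list of replication licensing, DNA synthesis and mitotic genes, of 56748 genes in the table, and all 34 passed the low-count filter that left 17724 genes for testing. They were read as an S phase set of 10 genes (Mcm2 to Mcm7, Pcna, Tyms, Rrm1 and Rrm2), a mitotic set of 23 genes, and Stmn1, which was kept outside both because neurons also use it.

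All 5 mice were 7 months old and carried 5xFAD, a set of transgenes under which amyloid plaques form in the brain. Of these, 2 were 5xFAD mice (replicates 1 and 3) and 3 were 5xFAD/Cd5l tg/wt mice (replicates 1, 2 and 3), in which the human PDGF-B promoter drove mouse Cd5l, called Cd5l-transgenic here. The brain without its cerebellum was used, and CD11b is a surface integrin found on myeloid cells such as microglia. Some labels name brain tissue in place of CD11b-positive cells. Wild-type mice, which the design also names, were not analysed here, and the labels do not say which cells made the transgenic protein. Cd5l had 45 and 9 counts in the 5xFAD libraries and 6438 to 10680 counts in the Cd5l-transgenic ones, as the labels have it. Libraries held 30798377 to 34794617 counts, the largest being 5xFAD replicate 3 and Cd5l-transgenic replicate 3, and all 10 microglial markers were detected in each (26180 to 28460 CPM, counts scaled to library size, in sum). Of markers of other cells, choroid plexus and ependymal genes summed to 2722 CPM in 5xFAD replicate 3 against 244.3 to 508.3 CPM elsewhere, and oligodendrocyte genes to 3846 CPM in Cd5l-transgenic replicate 2 against 266.3 to 957.1 CPM elsewhere.

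Before a cell divides, the ring-shaped MCM helicase is loaded on replication origins, a step called licensing. It then unwinds DNA in S phase while PCNA clamps the polymerases and ribonucleotide reductase and thymidylate synthase supply nucleotides. Mitosis follows under cyclin B and CDK1, with aurora and polo kinases, kinesins and a spindle checkpoint, and ends when the anaphase-promoting complex marks the cyclins for destruction. S phase genes are classically driven by E2F factors, and mitotic genes by complexes that bind a short element called CHR together with CCAAT boxes. Microglia are long-lived cells that renew themselves by slow division, and they divide more often around amyloid plaques.

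Promoters are shown first, as a description of both sets in which the motif search used none of the RNA values. RNA counts entered only the choice of the Mcm3 window and of the tested genes used for comparison. Of the 34 genes, 28 had an entry in the RefSeq promoter table (GRCm38.p6, another build than the GRCm39 of the counts). Aurkb, Ccna2, Stmn1, Kif20a, Tpx2 and Mcm4 did not. The 250 bases before each start were searched on both strands for CHR elements (TTTGAA or TTCGAA), E2F elements (TTTCCCGC, TTTCGCGC, TTTGCCGC or TTTGGCGC) and CCAAT boxes (CCAAT). E2F matches on opposite strands may overlap each other, as may CCAAT boxes on opposite strands (CCAATTGG in the Ube2c window below). A CHR match and a CCAAT box may overlap too. The following 5 windows were picked after the search, as the MCM genes with the most E2F matches and the highest level and as 3 mitotic genes with CHR matches. Capitals mark all matches, and each is given 5′ to 3′ on the strand of its gene. Mcm6 lies at chr1:128359706-128359955 (minus strand), Mcm3 at chr1:20820313-20820562 (minus), Cdk1 at chr10:69352913-69353162 (minus), Top2a at chr11:99024190-99024439 (minus) and Ube2c at chr2:164769679-164769928 (plus).
Mcm6: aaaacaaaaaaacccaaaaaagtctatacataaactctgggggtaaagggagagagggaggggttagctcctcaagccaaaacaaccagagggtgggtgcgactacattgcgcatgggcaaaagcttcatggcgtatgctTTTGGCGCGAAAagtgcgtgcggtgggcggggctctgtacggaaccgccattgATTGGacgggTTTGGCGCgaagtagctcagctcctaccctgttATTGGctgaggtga
Mcm3: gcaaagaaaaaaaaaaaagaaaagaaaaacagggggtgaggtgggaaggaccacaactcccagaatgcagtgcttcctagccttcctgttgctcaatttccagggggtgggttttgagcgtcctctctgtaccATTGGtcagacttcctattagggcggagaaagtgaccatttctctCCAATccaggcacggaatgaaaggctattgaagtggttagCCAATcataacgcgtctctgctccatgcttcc
Cdk1: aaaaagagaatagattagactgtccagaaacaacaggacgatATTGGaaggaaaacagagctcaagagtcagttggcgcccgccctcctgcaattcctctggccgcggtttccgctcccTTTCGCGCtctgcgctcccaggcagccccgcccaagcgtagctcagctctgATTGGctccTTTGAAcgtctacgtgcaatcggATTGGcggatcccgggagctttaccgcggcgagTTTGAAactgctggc
Top2a: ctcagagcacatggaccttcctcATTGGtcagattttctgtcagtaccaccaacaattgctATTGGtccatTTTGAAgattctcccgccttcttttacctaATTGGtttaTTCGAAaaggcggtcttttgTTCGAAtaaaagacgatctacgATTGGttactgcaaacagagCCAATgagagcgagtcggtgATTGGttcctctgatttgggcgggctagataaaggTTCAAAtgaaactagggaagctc
Ube2c: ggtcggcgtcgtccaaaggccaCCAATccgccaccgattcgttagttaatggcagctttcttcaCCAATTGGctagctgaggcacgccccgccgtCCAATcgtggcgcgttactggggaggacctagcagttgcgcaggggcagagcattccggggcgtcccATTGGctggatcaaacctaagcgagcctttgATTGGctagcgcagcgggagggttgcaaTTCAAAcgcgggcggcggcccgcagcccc

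In Mcm6 the E2F matches began 110, 106 and 47 bases before the start, the first 2 overlapping on opposite strands. For Mcm6, unlike the other windows shown, bases just after the start were not found in a reference transcript of the gene. Its distances thus rest on the promoter entry alone. Mcm3 held 3 CCAAT boxes and neither other motif. Cdk1 carried CHR matches 71 and 15 bases and an E2F match 131 bases before its start, and Top2a carried 4 CHR matches and 6 CCAAT boxes. Over the sets, a CHR match stood in 9 of 19 mitotic genes (47.4%) and 2 of 9 S phase genes (22.2%), against 15.1% of the 11972 tested genes with a promoter. An E2F match stood in 3 of 9 S phase genes (33.3%: Mcm5, Mcm6 and Mcm7) and 1 of 19 mitotic genes (5.26%: Cdk1), against 3.64%. A gene counted if any of its promoter entries held the match. Mcm7 (CHR and E2F) and Prc1 (CHR) each had a further entry without those matches. CCAAT boxes were common to both sets, in 8 of 9 and 17 of 19 genes, against 40.1% of tested genes. Over all 27025 genes of the promoter table the shares were 19.6% for CHR, 2.16% for E2F and 37.5% for CCAAT. A match is a run of letters and not a shown binding site.

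The S phase set had a higher median level per length than the mitotic set. Per kilobase of the authors' gene length, the mean level over the 5 libraries was highest for Pcna, the polymerase clamp, at 30.0 CPM per kb. Mcm3, a helicase subunit, followed in the S phase set at 14.0 CPM per kb, then Mcm6 at 5.50, Mcm4 at 4.98 and Mcm7 at 4.09 CPM per kb. This order depends on the length used: in CPM alone Rrm1 (11012 bases) was above Mcm6 (4666 bases) in every library. The median was 3.76 CPM per kb in the S phase set and 0.893 CPM per kb in the mitotic set. At the top of the mitotic set stood Mki67, which encodes the proliferation antigen Ki-67 that coats mitotic chromosomes, at 2.30 CPM per kb, and Top2a, the topoisomerase that untangles sister DNA, at 2.12 CPM per kb. The lowest was the kinetochore protein gene Cenpf at 0.403 CPM per kb. Of the S phase genes, Rrm2, the regulated small subunit of ribonucleotide reductase, was lowest at 0.912 CPM per kb, below its constant partner Rrm1 at 2.79 CPM per kb. As these are bulk RNA values, more dividing cells, more RNA per dividing cell and RNA of these genes in cells that do not divide cannot be told apart.

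**Figure D1:**
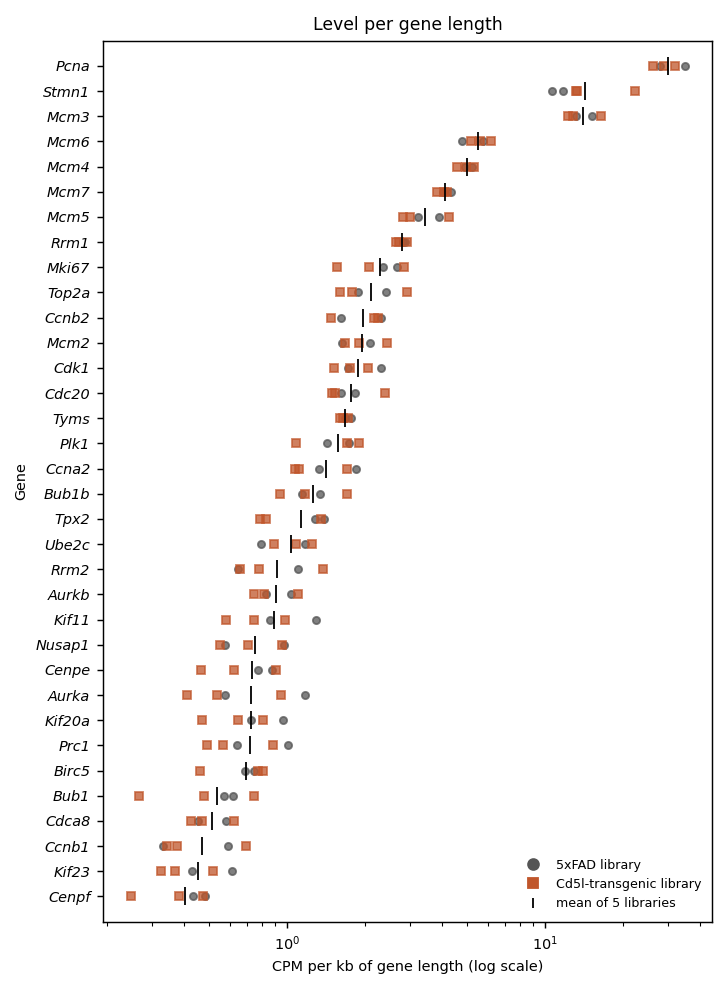
Level of each gene in CPM per kb of gene length (log axis), 1 circle per 5xFAD library, 1 square per Cd5l-transgenic library, with a bar at the mean of the 5. Pcna is highest at 30.0 and Cenpf lowest at 0.403 CPM per kb, and most mitotic genes lie in the lower part of the order.

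None of the 34 genes was called different between the genotypes. At an adjusted p under 0.05 the edgeR quasi-likelihood test called 0 of 34, where 0% of all tested genes were called, and adjusted p ranged from 0.995 to 0.999. At an unadjusted p under 0.05 it was also 0 of 34, where 2.63% of all tested genes passed. By the same measure DESeq2 gave 1 of 34, Stmn1, on the higher side (4.06% of all tested genes), and limma-voom gave 1 of 34, Tpx2, on the lower side (3.01%). DESeq2 called 0 of 34 (0.0621% of all tested genes), and limma-voom called 0. No mitotic or S phase gene had transgenic libraries all above, or all below, both 5xFAD libraries, a state that 7.2% and 8.69% of all tested genes showed. The 95% intervals were wide: their median half-width was 0.31 on the log2 scale in the S phase set and 0.73 in the mitotic set, so changes of the size of the mitotic values below were not detectable with 2 and 3 mice. The labels number the samples as separate mice.

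Licensing genes had small estimated differences between the genotypes, and every 95% interval spanned 0. For Mcm5 the interval ran from -0.59 to 0.44 on the log2 scale, and for Mcm2 from -0.39 to 0.61. Mcm3 (chromosome 1, 20873192 to 20890536, GRCm39) stood at 57.0 and 49.6 CPM in 5xFAD mice 1 and 3, against 48.2, 46.2 and 61.7 CPM in Cd5l-transgenic replicates 1, 2 and 3. Other values are in the same order of mice. The genotypes overlapped, with a log2 fold change (transgenic minus 5xFAD) of -0.03 and a 95% interval of -0.40 to 0.33. Mcm2, which joins the helicase ring to histones, stood at 14.6 and 11.3 CPM in 5xFAD mice, against 11.6, 13.2 and 16.9 CPM in transgenic mice. Its log2 fold change of 0.11 (SE 0.20) was the highest of the 6 MCM genes, and Mcm5 had the lowest at -0.08 (SE 0.21). Mcm4, Mcm6 and Mcm7 lay at -0.04, 0.10 and -0.05. In all 6 MCM genes Cd5l-transgenic replicate 3 was above the other transgenic libraries. Reads of Mcm7 may include some of Ap4m1 and Cops6, which overlap it on the opposite strand with larger counts.

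Among genes of DNA synthesis, Tyms and Rrm1 varied little between libraries and Rrm2 varied most. Pcna (chromosome 2, 132091082 to 132095234) stood at 83.5 and 67.2 CPM in 5xFAD mice, against 62.8, 69.6 and 76.6 CPM in transgenic mice, a log2 fold change of -0.11 (95% interval -0.43 to 0.20). Tyms, thymidylate synthase, had the smallest spread of all 34 genes, 9.77 to 10.8 CPM over the 5 libraries, with a ratio of 1.10 between the highest and the lowest. Rrm1 was as even, at 29.1 to 32.1 CPM. Rrm2 (chromosome 12, 24758240 to 24764145) stood at 1.80 and 3.05 CPM in 5xFAD mice 1 and 3, against 2.17, 1.82 and 3.81 CPM in transgenic mice. It was thus highest in both libraries numbered 3 and varied 2.12-fold, more than any other S phase gene. Its log2 fold change was 0.09, with a 95% interval of -0.96 to 1.14.

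The cyclins and their kinase did not share one order of libraries. Cdk1 (chromosome 10, 69170976 to 69188768) stood at 11.5 and 8.52 CPM in 5xFAD mice, against 7.53, 8.66 and 10.2 CPM in transgenic mice, highest in 5xFAD replicate 1. Its log2 fold change was -0.18 (SE 0.20). Ccnb1, cyclin B1 (chromosome 13, 100915158 to 100923078), stood at 1.39 and 2.48 CPM in 5xFAD mice 1 and 3, against 1.58, 1.44 and 2.94 CPM in transgenic mice. Both libraries numbered 3 were thus the highest for Ccnb1, in each genotype, and its log2 fold change was 0.02 (SE 0.45). Behind the highest and lowest of these values were 97 counts (exact 95% Poisson interval 78.7 to 118.3) and 41 counts (29.4 to 55.6). Ccnb2, cyclin B2, stood at 2.47 and 3.56 CPM and at 3.33, 2.26 and 3.45 CPM. Ccna2, the cyclin A of S phase and G2, stood at 5.46 and 7.53 CPM and at 4.40, 4.55 and 6.99 CPM, a log2 fold change of -0.30 (SE 0.28). For Ccna2 this was -0.04 without 5xFAD replicate 3 and -0.53 without Cd5l-transgenic replicate 3. Ccnb2 had a log2 fold change of -0.01 that turned above 0 under other scalings.

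Chromosome and kinetochore genes were lowest in a single transgenic mouse. Mki67 (chromosome 7, 135291513 to 135318090) stood at 23.7 and 26.8 CPM in 5xFAD mice 1 and 3, against 20.9, 15.7 and 28.5 CPM in Cd5l-transgenic replicates 1, 2 and 3. The transgenic libraries thus held both the lowest and the highest value, and the log2 fold change was -0.22 (95% interval -0.84 to 0.41). For Mki67 it was -0.02 without Cd5l-transgenic replicate 2 and -0.44 without Cd5l-transgenic replicate 3. Top2a (chromosome 11, 98883769 to 98915015) stood at 16.9 and 21.9 CPM and at 16.1, 14.4 and 26.4 CPM, a log2 fold change of -0.04 that was 0.14 without Cd5l-transgenic replicate 2. Cenpe, the kinesin that carries chromosomes to the spindle equator, stood at 6.68 and 7.51 CPM and at 5.37, 4.01 and 7.84 CPM. Cenpf was likewise lowest there, with 3.83 CPM in Cd5l-transgenic replicate 2 and 5.88 to 7.45 CPM in the other 4 libraries. For Cenpe and Cenpf the log2 fold changes were -0.31 (SE 0.30) and -0.32 (SE 0.28). Without Cd5l-transgenic replicate 2 both were -0.09, and without Cd5l-transgenic replicate 3 they were -0.58 and -0.53.

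Among mitotic kinases and checkpoint genes the ratio of the highest to the lowest library ran from 1.47 to 2.87. Aurka, the aurora kinase of spindle poles, was lowest in Cd5l-transgenic replicate 1 and highest in 5xFAD replicate 3, at 1.46 and 2.96 CPM in 5xFAD mice, against 1.03, 1.35 and 2.39 CPM in transgenic mice. Its log2 fold change of -0.49 (95% interval -1.67 to 0.69) was 0.13 without 5xFAD replicate 3. Bub1, a kinase of the spindle checkpoint, stood at 2.47 and 2.68 CPM and at 2.07, 1.16 and 3.24 CPM. It had 37 counts in Cd5l-transgenic replicate 2 (exact 95% Poisson interval 26.1 to 51.0) and 107 in Cd5l-transgenic replicate 3 (87.7 to 129.3), 2 mice of the same genotype. Plk1, the polo kinase, did not follow this order, with 3.83 and 3.13 CPM in 5xFAD mice, against 4.17, 2.38 and 3.75 CPM in transgenic mice. Bub1b, Aurkb, Birc5 (survivin) and Cdca8 (borealin), the last 3 being parts of the chromosomal passenger complex, had log2 fold changes from -0.08 to 0.03.

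Spindle and cytokinesis genes had the most negative median of the roles, with 6 of 6 below 0 and a median log2 fold change of -0.39. Kif11, the kinesin that pushes spindle poles apart (chromosome 19, 37364851 to 37410307), stood at 6.44 and 9.68 CPM in 5xFAD mice 1 and 3, against 5.56, 4.33 and 7.32 CPM in transgenic mice. Its log2 fold change was -0.50 (95% interval -1.20 to 0.21, unadjusted p = 0.135 in edgeR, adjusted p = 0.995), close to that of Aurka. It was -0.17 without 5xFAD replicate 3 and -0.75 without 5xFAD replicate 1. Tpx2, which activates Aurora A on the spindle, stood at 6.03 and 6.49 CPM and at 3.88, 3.67 and 6.35 CPM. For Tpx2, Cd5l-transgenic replicates 1 and 2 were below both 5xFAD libraries while replicate 3 lay between them (log2 fold change -0.43, SE 0.28; -0.71 without replicate 3). Kif23 and Kif20a, kinesins of the cleavage furrow, and Prc1, which bundles the midzone microtubules, had log2 fold changes of -0.37, -0.40 and -0.36, which were -0.09, -0.18 and 0.01 without 5xFAD replicate 3. Nusap1 lay at -0.09, and without 5xFAD replicate 3 at 0.36. In these 6 genes the lowest library was Cd5l-transgenic replicate 2. Kif20a, Prc1 and Nusap1 overlap genes on the opposite strand (Cdc23, Rccd1 and Oip5), whose reads may be included.

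The exit genes lay slightly above 0. Ube2c, the ubiquitin-conjugating enzyme of the anaphase-promoting complex, stood at 2.07 and 3.05 CPM in 5xFAD mice, against 2.81, 2.32 and 3.24 CPM in transgenic mice (log2 fold change 0.11, SE 0.30). Cdc20, the activator of that complex, stood at 3.02 and 3.41 CPM and at 2.88, 2.79 and 4.48 CPM (log2 fold change 0.07, SE 0.30). Both were highest in the libraries numbered 3. Cdc20, like Ccna2 and Cdca8 above, overlaps a gene on the opposite strand with larger counts (Elovl1, Exosc9 and 9930104L06Rik), whose reads may be included.

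**Figure D2:**
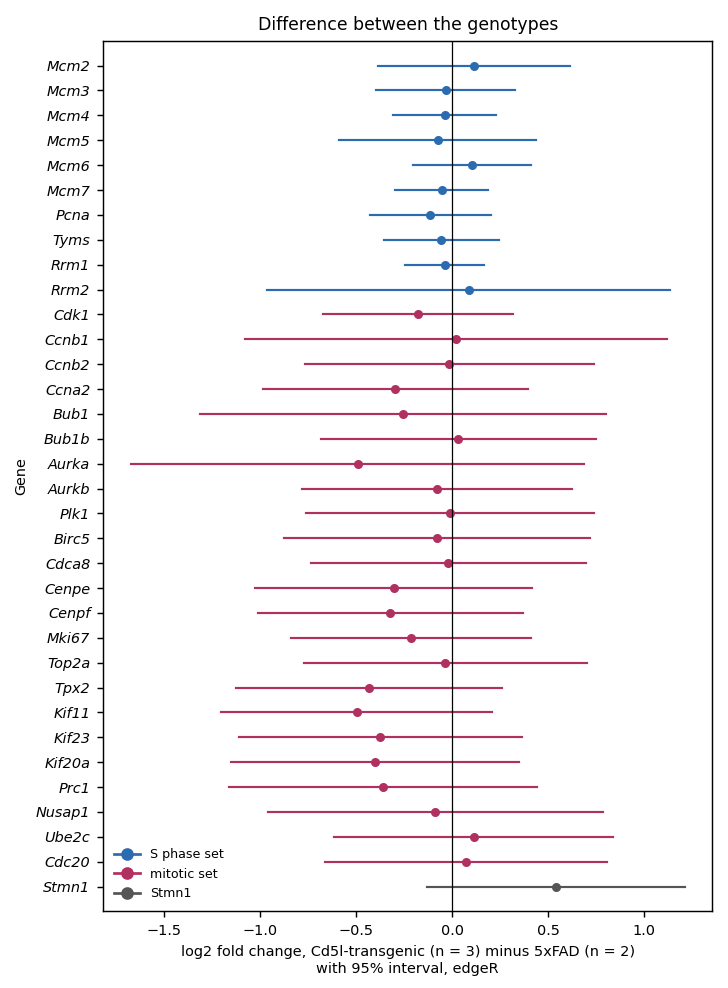
log2 fold change of each gene, Cd5l-transgenic (n = 3) minus 5xFAD (n = 2), with its 95% interval from edgeR. Every interval spans 0, and intervals are wider in the mitotic set (median half-width 0.73) than in the S phase set (0.31).

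The sets were then compared as wholes. In the S phase set 7 of 10 genes and in the mitotic set 19 of 23 genes lay below 0, where 57.3% of all tested genes did. The median log2 fold change was -0.04 in the S phase set and -0.18 in the mitotic set, against -0.03 over all tested genes. The mitotic value rested on single mice: it was 0.05, with 11 of 23 genes below 0, without Cd5l-transgenic replicate 2, and -0.04, with 13 of 23, without 5xFAD replicate 3. Without Cd5l-transgenic replicate 3 it was -0.36 with 22 of 23 genes below 0, and without 5xFAD replicate 1 it was -0.31 with 20 of 23. The S phase median was 0.04, with 3 of 10 genes below 0, without Cd5l-transgenic replicate 2, 0.02 without 5xFAD replicate 1 and -0.01 without Cd5l-transgenic replicate 1. No test was made of either set as a whole.

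Summed over the 10 S phase genes, levels were 277.6 and 244.6 CPM in 5xFAD replicates 1 and 3 and 237.9, 239.7 and 284.2 CPM in Cd5l-transgenic replicates 1, 2 and 3. The group means were 261 ± 23.3 CPM (SD, n = 2) and 254 ± 26.2 CPM (SD, n = 3). The 23 mitotic genes summed to 126.9 and 152.1 CPM in 5xFAD mice, against 113.0, 93.96 and 159.5 CPM in transgenic mice, or 140 ± 17.8 CPM (SD, n = 2) and 122 ± 33.7 CPM (SD, n = 3). The differences were smaller than the spread between mice of a genotype. The ratio of the mitotic to the S phase sum was 0.457 and 0.622 in 5xFAD and 0.475, 0.392 and 0.561 with the transgene. That ratio was higher in each library numbered 3 than in the other libraries, and lowest in Cd5l-transgenic replicate 2. Per 1000 CPM of microglial markers, the mitotic sum was 4.57 and 5.81 in 5xFAD and 3.97, 3.56 and 5.76 with the transgene, in nearly the same order.

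Mice of the same genotype were further apart in the mitotic set, whose genes had 32 to 950 counts per library, than in the S phase set, with 53 to 2532. In 19 of 23 mitotic genes 5xFAD replicate 3 and Cd5l-transgenic replicate 3 were the highest libraries, as in 12.6% of all tested genes, the exceptions being Cdk1, Plk1, Cdca8 and Birc5. In the S phase set it was 2 of 10, Mcm4 and Rrm2. Cd5l-transgenic replicate 3 exceeded the other transgenic libraries in 22 of 23 mitotic genes (35.6% of all tested genes), all but Plk1, and in 9 of 10 S phase genes, all but Tyms. 5xFAD replicate 3 exceeded 5xFAD replicate 1 in 20 of 23 mitotic genes but in 3 of 10 S phase genes (51.3% of all tested genes). Cd5l-transgenic replicate 2 was the lowest library in 17 of 23 mitotic genes and 4 of 10 S phase genes (27.7% of all tested genes). Between Cd5l-transgenic replicates 3 and 2 the ratio of CPM had a median of 1.73 in the mitotic set (1.18 to 2.79) and 1.18 in the S phase set (0.973 to 2.10). These are descriptions of single mice, with no test.

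**Figure D3:**
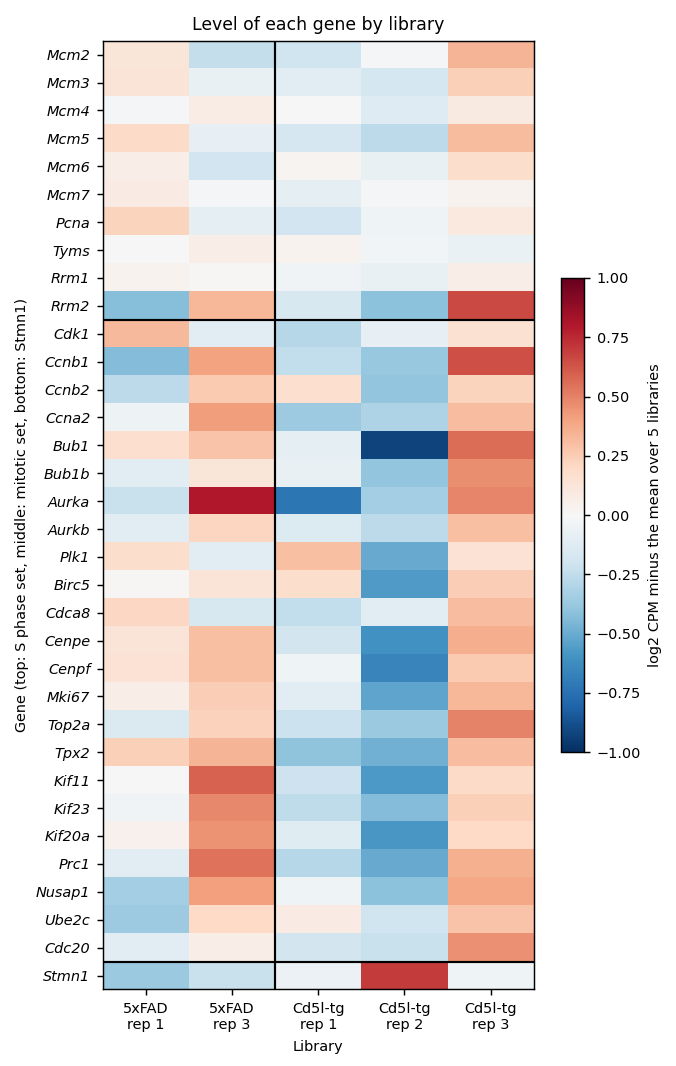
log2 CPM of each gene minus its mean over the 5 libraries (colour), 1 row per gene and 1 column per library, with lines between the genotypes and between the S phase set, the mitotic set and Stmn1. Most mitotic rows are red in both libraries numbered 3 and blue in Cd5l-transgenic replicate 2, while the S phase rows are paler except Rrm2.

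Other measures moved with this order in part. The libraries high in mitotic genes were also the largest, with 34794617 and 32874316 counts. The choroid and ependymal list was highest in 5xFAD replicate 3, at 2722 CPM, and stood at 326.4 CPM in Cd5l-transgenic replicate 3. In 0 of the 14 marker lists were these libraries the 2 highest by summed level, a state that 12.6% of single tested genes showed. Cd5l-transgenic replicate 2, low in mitotic genes, was the highest in 6 of the 14 lists (astrocyte, endothelial, erythroid, neuron, oligodendrocyte and its precursor) and the lowest in 2. Those 2 were the border macrophage and lymphocyte lists. All 6 border macrophage markers were detected in each library (232.2 and 271.9 CPM in 5xFAD, 203.3 to 372.5 CPM in transgenic mice). All 8 lymphocyte markers were detected, 4 of them past the filter (8.95 and 8.47 CPM in 5xFAD, 8.37 to 12.3 CPM in transgenic mice). Microglial markers in that mouse summed to 26420 CPM, within the range of the others. The part of any of these in the mitotic values was not tested.

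**Figure D4:**
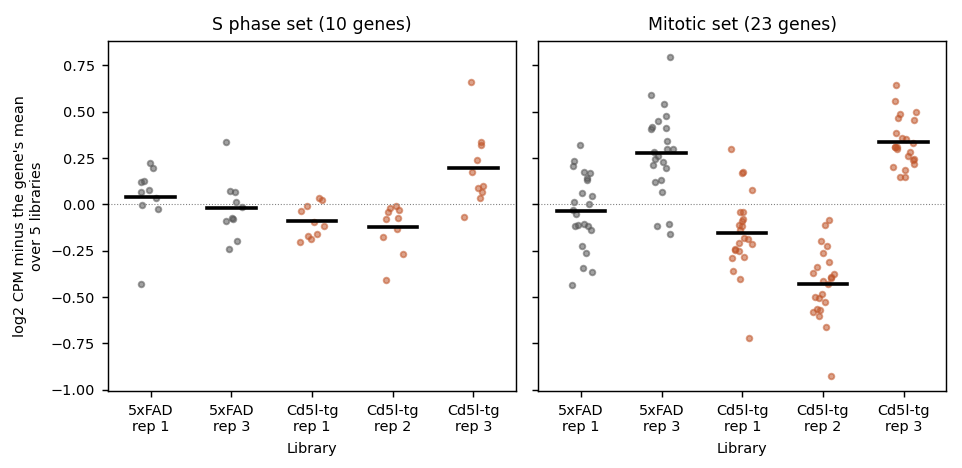
log2 CPM minus the gene's mean over the 5 libraries, 1 point per gene, with a bar at the mean of the set in each library (5xFAD grey, Cd5l-transgenic orange). Cd5l-transgenic replicate 3 is highest in both panels, while 5xFAD replicate 3 is high in the mitotic set alone, where Cd5l-transgenic replicate 2 is lowest.

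Stmn1 went against both sets. Stathmin, its product, takes apart microtubules in dividing cells and in growing neurons (chromosome 4, 134195631 to 134201154). It stood at 20.5 and 22.6 CPM in 5xFAD mice 1 and 3, against 25.4, 43.0 and 25.6 CPM in Cd5l-transgenic replicates 1, 2 and 3. All transgenic libraries were thus above both 5xFAD libraries, as in 7.2% of all tested genes, the margin being small except in replicate 2. The log2 fold change was 0.54 (95% interval -0.13 to 1.21, unadjusted p = 0.0950 in edgeR, adjusted p = 0.995), and it was 0.26 without Cd5l-transgenic replicate 2. That library had the lowest level of 17 mitotic genes and the highest level of neuron markers. All 7 of the latter were detected, summing to 4.78 and 5.05 CPM in 5xFAD mice, against 7.43, 14.4 and 6.63 CPM in transgenic mice. Oligodendrocyte precursor markers summed to 110.4 and 59.1 CPM and to 148.0, 167.2 and 47.4 CPM over 7 genes, of which Neu4 was at 0 in 3 libraries. Neuroblast markers were low, with 9 genes summing to 4.78 and 25.4 CPM and to 11.3, 11.95 and 6.99 CPM, 1 of 9 past the filter, and 1 to 4 of 9 at 0 in each library. Their part in the Stmn1 value was not tested.

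Other genes of the cycle, 120 in 7 lists, gave no call either. Of 119 tested, edgeR called 0 higher and 0 lower (0% of all tested genes), 0 passed at an unadjusted p under 0.05, and DESeq2 called 0, with 5 adjusted p-values not given by it. Of 40 further mitotic genes 29 lay below 0, with a median of -0.08, and 5xFAD replicate 3 and Cd5l-transgenic replicate 3 were the highest libraries in 19 of 40, against 12.6% of all tested genes. Of these, Depdc1a, which acts in mitotic progression, stood at 0.474 and 1.27 CPM in 5xFAD mice, against 0.356, 0.282 and 0.696 CPM in transgenic mice, a log2 fold change of -1.003 (SE 0.60) that was -0.08 without 5xFAD replicate 3. Anln, anillin, which scaffolds the cleavage furrow and is also expressed in oligodendrocytes, stood at 5.86 and 6.74 CPM and at 8.82, 25.3 and 7.32 CPM. Its highest library was Cd5l-transgenic replicate 2, also the highest in 6 of the 14 marker lists, that of oligodendrocytes included. Its log2 fold change of 1.13 (SE 0.62) was 0.37 without that library. The part of such RNA in the Anln value was not tested. Replisome genes did not share the order: both libraries numbered 3 were highest in 2 of 23, the median was 0.03, and Pold2, a subunit of DNA polymerase delta, stood at 8.27 and 9.74 CPM in 5xFAD mice, against 10.8 to 11.8 CPM in transgenic mice. Rfc4, of the clamp loader, lay at 0.35 (SE 0.29), and at 0.16 without 5xFAD replicate 3.

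The lists of origin, G1 to S, mitotic transcription and checkpoint genes had medians between -0.07 and 0.001. Of 16 tested origin and initiation genes 13 lay below 0, with a median of -0.07, among them Orc3, of the origin recognition complex (-0.17, SE 0.09), while Gmnn, geminin, which blocks relicensing, stood at 0.28 (SE 0.23). Of 16 genes of the G1 to S transition 11 lay below 0, with a median of -0.04. There E2f1, a transcription factor of S phase genes, stood at 7.29 and 6.15 CPM in 5xFAD mice, against 4.23, 4.27 and 6.17 CPM in transgenic mice. For E2f1 the log2 fold change was -0.45 (SE 0.24, unadjusted p = 0.106 in edgeR, adjusted p = 0.995), and Cdk4 lay at -0.08 (SE 0.07). For 7 genes of the complexes that control mitotic transcription the median was 0.001, with Lin52 at 0.16 and Mybl2 at -0.24. Of 10 checkpoint genes 8 lay below 0, with Chek2 at -0.25 (SE 0.13) and Trp53 at -0.12 (SE 0.11).

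Inhibitors of cyclin-dependent kinases held the lowest unadjusted p among these lists. Cdkn1a, which encodes p21, stood at 113.8 and 91.6 CPM in 5xFAD mice 1 and 3, against 89.6, 86.6 and 77.7 CPM in transgenic mice. Every transgenic library was below both 5xFAD libraries, as in 8.69% of all tested genes, by a small margin to 5xFAD replicate 3. The log2 fold change was -0.28 (SE 0.12, unadjusted p = 0.0563 in edgeR, adjusted p = 0.995), and -0.11 without 5xFAD replicate 1. Cdkn2a, whose locus encodes p16 and p19, stood at 3.59 and 1.78 CPM in 5xFAD mice, against 1.65, 1.66 and 0.878 CPM in transgenic mice, again without overlap. Its log2 fold change was -0.92 (SE 0.45, unadjusted p = 0.0856 in edgeR, adjusted p = 0.995), and -0.35 without 5xFAD replicate 1. Over the 7 inhibitors the median was -0.09, with 5 below 0 and 2 above.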

How the data were processed

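RNA-seq of CD11b-positive brain cells was deposited by the authors as 1 table of whole-number read counts per gene, not normalized, with gene positions and gene length in bases. The build is GRCm39 (mm39), per the submitters' processing notes. Not given in the sources used here: aligner, counter, annotation release and use of strand. Genes on opposite strands that overlap may therefore share reads. Columns were matched to samples by library name. The column of Cd5l-transgenic replicate 3 writes its letter pairs in the reverse order, and 0 columns of values were left unused. No pair of libraries agreed within counting noise (chi-square per degree of freedom 20.91 to 59.56).

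Genes were filtered with filterByExpr, scaled by TMM and tested with the quasi-likelihood test of edgeR 4.0.16 (R 4.3.3) over all 5 libraries with genotype as the only term. Benjamini-Hochberg adjustment ran over all 17724 genes tested (threshold 0.05). CPM are TMM-scaled, and 1 count was worth 0.0282 to 0.0339 CPM. Log2 CPM used a prior count of 2. DESeq2 1.42.0, limma-voom 3.58.1 with sample weights, other scalings, other filters and leaving out each library were alternatives, and the microglia-scaled sums and the older edgeR method were added after seeing the data. Intervals on counts cover counting error only. Counts were also simulated for these 17724 genes and 5 libraries. In them edgeR recovered 56 of 100 genes given a 2-fold change and 95 of 100 given an 8-fold change, and called 20 that had none. The simulated libraries differed only by random draws, size and the changed genes, without the differences in marker RNA seen here. These shares are thus not the power in the real data, where edgeR did not call Cd5l (log2 fold change 8.23, adjusted p = 0.448).

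All 34 genes are named, and of each other list the 2 genes with the smallest unadjusted p, plus Cd5l. The genes and lists were chosen with earlier results of these data known. Promoter sequences are from RefSeq (GRCm38.p6), matched by symbol.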

Additional observations from a re-analysis of the deposited data

How the results depend on the processing

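None of the 34 genes and none of the other cycle genes was called under any of the 13 alternatives, while over all genes DESeq2's test called 11 and leaving out 1 library gave 0 to 10 calls, the 10 being without 5xFAD replicate 1. Cd5l was called by DESeq2 (log2 fold change 8.19, adjusted p = 5.791e-19) and not by edgeR (adjusted p = 0.448). No scaling moved the median of all genes by over 0.1. The mitotic median log2 fold change was -0.26 with limma-voom, -0.13 without Ccna2, Mki67 and Top2a, -0.19 for summed CPM and -0.23 per microglial marker. Leaving out 1 library gave -0.36 to 0.05 for the mitotic set, -0.07 to 0.04 for the S phase set and -0.33 to 0.02 for their difference. The labels do not say whether mice of the same number were handled together. Over all 17724 tested genes, the deviations of same-numbered mice from their genotype mean correlated at 0.13 for number 1 and -0.24 for number 3. Both values use the same 5xFAD deviations with opposite sign, as that group has 2 libraries. Whether same-numbered mice share a factor cannot be told from these values. The replicate block added a term for replicate number. With it the medians were 0.03 and 0.02, the difference 0.01, and 11 of 23 mitotic genes lay below 0. Replicate number 2 has 1 library, so Cd5l-transgenic replicate 2 adds nothing to the genotype difference in that fit. The block is thus close to leaving that library out, where 11 of 23 mitotic genes also lay below 0. Of the 34 genes 23 changed sign under at least 1 alternative and 11 under none; the cause was not tested. The replicate block gave 0.0379 for Mcm3, 0.0169 for Mcm4, 0.0243 for Mcm5, 0.17 for Ccnb2, 0.0369 for Bub1, 0.0356 for Aurkb, 0.19 for Plk1, 0.14 for Birc5, 0.0305 for Cdca8, 0.10 for Top2a and 0.11 for Nusap1. Limma-voom gave -0.0129 for Mcm2, -0.0434 for Rrm2, -0.13 for Ccnb1, 0.0728 for Ccnb2, -0.052 for Bub1b, 0.13 for Plk1 and -0.0683 for Cdc20. DESeq2 size factors gave 0.005 for Ccnb2 and 0.00618 for Plk1, upper-quartile factors 0.0023 for Ccnb2 and 0.00672 for Plk1, a filter of 1 CPM in 2 samples 0.00208 for Ccnb2 and 0.00456 for Plk1, and DESeq2's test 0.015 for Ccnb2 and 0.000399 for Plk1. Leaving out 1 library gave -0.0644 to 0.30 for Mcm2, -0.16 to 0.0721 for Mcm3, -0.0826 to 0.0297 for Mcm4, -0.26 to 0.0669 for Mcm5, -0.0253 to 0.24 for Mcm6, -0.26 to 0.0539 for Pcna, -0.061 to 0.00364 for Rrm1, -0.28 to 0.54 for Rrm2, -0.38 to 0.0469 for Cdk1, -0.36 to 0.52 for Ccnb1, -0.24 to 0.28 for Ccnb2, -0.66 to 0.0585 for Bub1, -0.22 to 0.22 for Bub1b, -0.90 to 0.13 for Aurka, -0.25 to 0.0976 for Aurkb, -0.17 to 0.21 for Plk1, -0.21 to 0.15 for Birc5, -0.20 to 0.17 for Cdca8, -0.33 to 0.16 for Top2a, -0.64 to 0.00822 for Prc1, -0.40 to 0.36 for Nusap1, -0.12 to 0.43 for Ube2c and -0.17 to 0.21 for Cdc20. Mitotic genes had 32 to 950 counts per library. Of the 11 genes that kept their sign, leaving out 1 library gave -0.53 to -0.04 for Ccna2, -0.58 to -0.09 for Cenpe, -0.53 to -0.09 for Cenpf, -0.75 to -0.17 for Kif11, -0.59 to -0.18 for Kif20a, -0.59 to -0.09 for Kif23, -0.44 to -0.02 for Mki67, -0.71 to -0.27 for Tpx2, -0.10 to -0.00463 for Mcm7, -0.09 to -0.01 for Tyms and 0.26 to 0.69 for Stmn1.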
